A study of Mus musculus with 31 samples.

Results

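Known targets of the miR-290 microRNA family, the 6 genes Cdkn1a, Lats2, Rbl2, Casp2, Mbd2 and Ei24, were followed in mouse embryonic stem cells that had lost the microRNA-processing enzyme Dicer. The 6 were taken from the list of reported targets by name, with earlier results of these data known. They are 6 of the 21821 genes with a mean exonic level of at least 1 TPM (a relative transcript level, scaled for transcript length and library total). Each gene was read in newly made RNA, in RNA that was present before labelling, and in intronic RNA, which marks transcripts not yet spliced.

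The series held 31 libraries of a male embryonic stem cell line with a conditional Dicer1 gene, named DTCM23/49 XY in the labels. Dicer-depleted cells had received 4-hydroxytamoxifen (4-OHT) at 800 nM to remove Dicer1, and wild-type (WT) is the other genotype label. The labels give 8 days of treatment for Dicer-depleted and WT cells alike and call the cells of both a conditional Dicer mutant, so what the WT cells received is not clear from them. Cells of both genotypes were given 200 µM 4-thiouridine (4sU), a uridine analogue that enters RNA as it is made, for 10 or 15 minutes, and labelled RNA was then parted from unlabelled RNA. This gave 16 libraries, 4 for each of labelled and preexisting RNA in Dicer-depleted and in WT cells, from 2 numbered biological replicates per genotype. These replicates are called cultures here, and p-values measure the spread between them only. For tests of a level, this spread was pooled over the labelled and preexisting profiles, although both come from the same cultures. RNA without the label is named preexisting in 1 field of the labels and total in another, and is called preexisting here. Another 15 libraries held small RNA of day 0, 4, 8, 10 and 12 of 4-OHT, with 3 libraries per day; the day 0 libraries carry the Dicer-depleted label too, although day 0 is the start of treatment.

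The miR-290 cluster makes abundant microRNAs of mouse embryonic stem cells. Several of them share the same seed, the stretch at the 5′ end that pairs with target mRNAs, with microRNAs of the related miR-302 cluster. Pairing of the seed with a matching site in a 3′ untranslated region (UTR) leads to less translation and faster decay of the mRNA. In embryonic stem cells the family is best known for holding down inhibitors of the step from G1 to S phase, among them Cdkn1a, Lats2 and Rbl2, and its loss slows the cell cycle. Casp2 and Ei24, which act in cell death, have been reported as targets that link the family to survival after DNA damage, and Mbd2 as a target of the related microRNAs in reprogramming.

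The microRNAs with the family's seed are shown because the sites described next are its complement. Their mature sequences, from RefSeq, carry the seed (bases 2 to 8) in capitals:
miR-291a-3p: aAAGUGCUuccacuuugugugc
miR-294-3p: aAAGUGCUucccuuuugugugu
miR-295-3p: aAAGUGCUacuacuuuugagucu
miR-302b-3p: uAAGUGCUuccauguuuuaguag
miR-302d-3p: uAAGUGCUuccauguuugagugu
The 3 members of the miR-290 cluster lie within 2 kb of one another on the plus strand of chromosome 7 (chr7:3218968-3218989, chr7:3220691-3220712 and chr7:3220815-3220837, GRCm38), and both miR-302 members on chromosome 3 (chr3:127545275-127545297 and chr3:127545665-127545687, plus strand). All 5 have the seed AAGUGCU and differ outside it. miR-302a-3p is left out of the sums given below.

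Each of the 6 genes held at least 1 site in the 3′ UTR, the 7 bases AGCACTT that pair with this seed, in the transcript with the longest annotated 3′ UTR (GENCODE M21). The sites of 5 genes follow as 24-base windows of the mRNA strand, with the matching bases in capitals, 8 of them where the site ends in a further A:
Cdkn1a, first site: cctcagacctgaatAGCACTTtgg
Cdkn1a, second site: accgtgggtgtcaaAGCACTTAgt
Lats2, first site: tacagtatggaaagAGCACTTAtt
Lats2, second site: gtgttgtatctgatAGCACTTgtc
Rbl2: gtatttttcaataaAGCACTTAta
Casp2: tgatataacctagaAGCACTTgtc
Ei24: ccagctgtttttttAGCACTTgcc
These windows lie at chr17:29099814-29099837 and chr17:29100486-29100509 (Cdkn1a, plus strand), chr14:57691084-57691107 and chr14:57690985-57691008 (Lats2, minus strand), chr8:91123816-91123839 (Rbl2, plus strand), chr6:42281544-42281567 (Casp2, plus strand) and chr9:36779886-36779909 (Ei24, minus strand), all in GRCm38 and all within the 3′ UTR. Mbd2 had 1 site, of 8 bases. The first Cdkn1a site is followed by a T and so also holds GCACTTT, the motif of the miR-17 family. The Rbl2 site starts 1384 bases after the stop codon of a 3′ UTR of 1398 bases, while the first Lats2 site starts 195 bases after it. The 7-base motif, searched on the mRNA strand only, was present in 1919 of 11059 tested protein-coding genes (17.4%), and the 8-base site, held by Cdkn1a, Lats2, Rbl2 and Mbd2, in 399 (3.61%). Genes with a site had a median log2 change of 0.20 in preexisting RNA of depleted over WT cells, and genes without one 0.01; their 3′ UTRs differed in length too, with medians of 2472 and 932 bases.

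The seed family was nearly gone at day 8, the day the labels give for the 4sU cells. Before 4-OHT (day 0) the 5 microRNAs together had 23230 ± 2519 RPM (reads scaled to the total of all reads in the library). After 4 days they had 12870 ± 976 RPM, after 8 days 512 ± 148 RPM, after 10 days 91.2 ± 10.2 RPM and after 12 days 61.3 ± 7.97 RPM (SD, n = 3 libraries per day). The day 8 mean was 2.20% of the day 0 mean, the difference between the mean log2 values was -5.54, and no day 8 library overlapped a day 0 library (exact permutation test, two-sided, p = 0.1, the smallest that 3 against 3 libraries allow). miR-295-3p made up most of the sum, with 611, 367 and 437 RPM at day 8 against 21700, 22340 and 18070 RPM at day 0. All 5 fell at day 8 in edgeR's quasi-likelihood test with all reads as library size, with log2 changes of -5.24 (miR-294-3p) to -6.39 (miR-302d-3p) and adjusted p of at most 6.38e-12. That direction is shared by most microRNAs: 90% of the 260 tested were called lower and 3.85% higher, or 93.8% in either direction. Scaled to the other microRNAs instead (TMM factors), 89 were called higher and 84 lower, and miR-294-3p was no longer called (log2 change -0.40, adjusted p = 0.188). As a share of microRNA reads alone the family stood at 4.54% ± 0.067 at day 8 and 12.4% ± 0.580 at day 0.

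**Figure D1:**
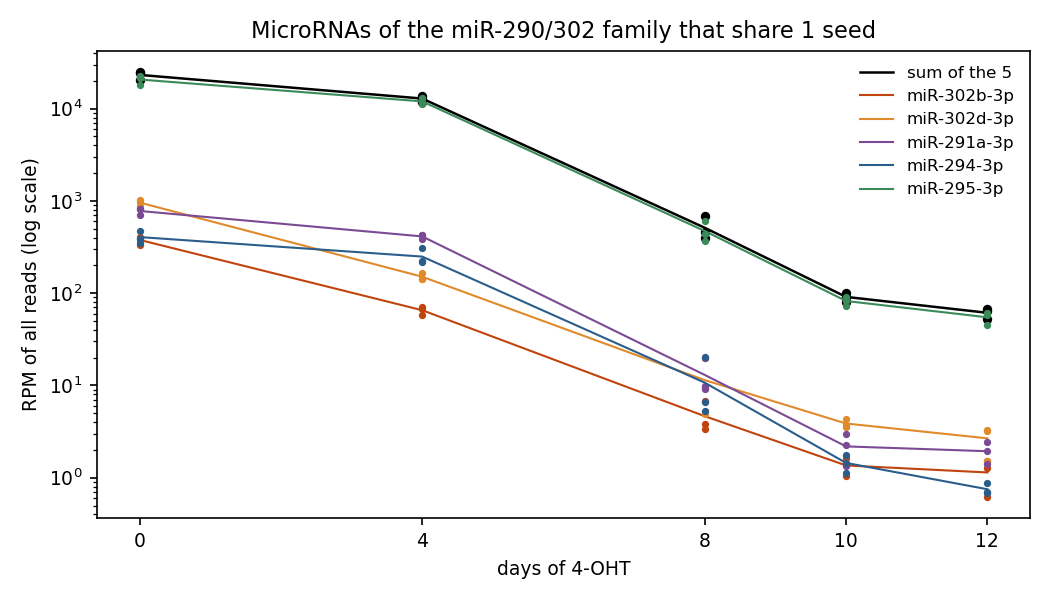
RPM of all reads (log axis) against days of 4-OHT for the 5 microRNAs with the shared seed and for their sum. Points are single libraries, 3 per day, and lines join the means; every microRNA drawn was lower at day 8 than at day 4, and miR-295-3p carried most of the sum on each day.

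The 4sU libraries matched their labels. Dicer1, whose product cuts microRNA precursors, had 1.2 to 3.37 TPM in preexisting RNA of depleted cells and 13.4 to 17.9 TPM in WT cells (log2 change -2.29, limma adjusted p = 0.0347), with no overlap. The 5 stem cell markers looked up (Pou5f1, Nanog, Sox2, Zfp42, Esrrb) were all present and summed to 533 to 604 TPM in depleted and 425 to 508 TPM in WT preexisting RNA. None of 5 fibroblast, 3 primitive endoderm and 4 trophoblast markers averaged above 1 TPM, with Col1a2, Postn, Col3a1, Gata6, Sox17 and Cdx2 under 0.1 TPM. Of 3 neural or mesoderm markers (Pax6, Sox1 and T) 1 did, and their sum was 10.2 to 37.9 TPM in depleted against 4.998 to 12.7 TPM in WT cells; T was under 0.1 TPM, and the part of such cells in the results below was not tested. In these bulk libraries fewer cells of a type and less RNA per cell cannot be told apart. Values are shares of each library's own signal, so a level in labelled and one in preexisting RNA are each relative to the other transcripts of that fraction.

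In preexisting RNA all 6 genes were higher in every depleted library than in any WT library. How many of all genes were free of such overlap was not counted. Outside the 6, Ash1l, Akt1, Dazap2, Lats1, Rb1 and Mbd1, from the lists described below, had no overlap either. The other tested genes of those lists overlapped. Cdkn1a, Mbd2 and Ei24 passed the test across all genes (limma, adjusted p under 0.05), and Lats2, Rbl2 and Casp2 did not. These calls use a spread pooled with the labelled fraction. With preexisting RNA alone in the fit none of the 6 passed (limma adjusted p = 0.44 for each). Since the 6 were chosen with earlier results of these data known, setting them against all genes is a description. The 3 of 6 that passed stand against 0.5% of the 21821 genes tested that were called higher and 0.147% that were called lower, or 0.646% in either direction. That is 109 genes higher and 32 lower; with each library centred on its median it was 39 higher and 23 lower, and of the 6 genes Cdkn1a alone was still called. The median log2 change of the 6 was 1.48, and that of all tested genes 0.03. In what follows, 4 values of a genotype are given as culture 1 at 10 and at 15 minutes of labelling, then culture 2 at 10 and at 15 minutes.

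Cdkn1a (chr17:29090976-29100727, plus strand, GRCm38) encodes p21, an inhibitor of cyclin-dependent kinases that halts cells in G1. Its preexisting exonic RNA measured 192, 173, 155 and 185 TPM in depleted cells, against 30.3, 34.6, 59.4 and 57.3 TPM in WT cells. All depleted libraries lay far above the WT libraries, and WT culture 1 was lower than WT culture 2. The means were 176 ± 9.06 and 45.4 ± 18.3 TPM (SD, n = 2 cultures each), a log2 change of 1.99 (SE 0.30, limma adjusted p = 0.0426).

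Labelled Cdkn1a RNA held 52.4, 60.9, 56.1 and 85.0 TPM in depleted cells and 19.4, 21.1, 26.8 and 31.3 TPM in WT cells. The genotypes did not overlap, and the log2 change was 1.33 (SE 0.30, limma adjusted p = 0.19). Labelled intronic Cdkn1a RNA did overlap, with 10.9, 13.1, 20.7 and 22.7 TPM in depleted and 10.9, 6.65, 18.2 and 19.8 TPM in WT cells: within each genotype culture 2 was the higher one, and the cultures differed more than the genotypes (log2 change 0.34, SE 0.43).

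Lats2 (chr14:57689662-57758388, minus strand) encodes a kinase of the Hippo pathway that restrains growth. In preexisting RNA it was a low gene, with 18.8, 7.40, 7.04 and 5.79 TPM in depleted cells and 3.73, 2.95, 4.01 and 1.92 TPM in WT cells. The genotypes did not overlap, but 1 depleted library at 10 minutes was far above the other 3. The log2 change was 1.26 (SE 0.29, limma adjusted p = 0.105). In labelled RNA the values were 6.20, 11, 7.59 and 12.5 TPM in depleted and 4.08, 2.45, 2.80 and 3.47 TPM in WT cells, again without overlap and with a log2 change of 1.27 (SE 0.29, limma adjusted p = 0.192). The estimates for preexisting and new Lats2 RNA were thus nearly equal. Gm49361, an annotated protein-coding gene on the same strand, overlaps Lats2 and had 1.70 to 2.14 TPM in depleted and 1.37 to 1.76 TPM in WT preexisting RNA, so a part of the reads could belong to either.

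Rbl2 (chr8:91070057-91123844, plus strand) encodes p130, a pocket protein of the retinoblastoma family that represses E2F target genes. Its preexisting RNA measured 12.2, 15.4, 33.7 and 50.4 TPM in depleted cells, against 4.93, 7.32, 9.74 and 5.70 TPM in WT cells. Every depleted library was above every WT library, yet depleted culture 2, at 42.0 TPM, was far above depleted culture 1, at 13.8 TPM. The log2 change of 1.69 therefore had the largest error of the 6 (SE 0.47, limma adjusted p = 0.141); without depleted culture 2 it was 0.93, and without depleted culture 1 it was 2.45. Labelled Rbl2 RNA overlapped between genotypes, with 26.5, 16.8, 18.3 and 25.5 TPM in depleted and 12.9, 7.60, 18.0 and 17.6 TPM in WT cells (log2 change 0.64, SE 0.47, limma adjusted p = 0.582). Labelled intronic Rbl2 RNA measured 14.5, 15.5, 18.6 and 16.7 TPM in depleted cells and 13.2, 9.30, 15.8 and 16.7 TPM in WT cells, overlapping as well.

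Casp2 (chr6:42264985-42282508, plus strand) encodes caspase 2, a protease of the cell death pathway. Preexisting RNA measured 36.4, 27.2, 42.5 and 35.4 TPM in depleted cells and 12.0, 20.2, 20 and 15.0 TPM in WT cells, without overlap (log2 change 1.04, SE 0.23, limma adjusted p = 0.0937). Labelled RNA measured 31.4, 30.6, 42.2 and 42.3 TPM in depleted and 30.5, 30.4, 38 and 35.4 TPM in WT cells. The labelled libraries of the genotypes overlapped and culture 2 was higher in both; the log2 change was 0.11 (SE 0.23, 95% interval -0.41 to 0.64, limma adjusted p = 0.865). Labelled intronic Casp2 RNA measured 27.5, 25.4, 39.7 and 26.2 TPM in depleted against 29.9, 25.2, 30.4 and 28 TPM in WT cells, also overlapping.

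Ei24 (chr9:36779159-36797393, minus strand) encodes a membrane protein of the endoplasmic reticulum that is induced by p53 and acts in autophagy and cell death. With Cdkn1a it was the most abundant of the 6 in TPM, with 163, 151, 186 and 138 TPM in preexisting RNA of depleted cells and 67.3, 71.8, 72.5 and 80.4 TPM in WT cells. The genotypes stood well apart, at means of 159 ± 3.86 and 73.0 ± 4.86 TPM (SD, n = 2 cultures each), and the log2 change of 1.11 had the smallest error of the 6 (SE 0.17, limma adjusted p = 0.0426). Labelled RNA held 98.3, 49.5, 83.8 and 73.0 TPM in depleted and 47.2, 36.4, 45.8 and 47.3 TPM in WT cells. These too did not overlap, although the lowest depleted library was close to the highest WT library, and the log2 change was 0.74 (SE 0.17, limma adjusted p = 0.191).

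Mbd2 (chr18:70568189-70626131, plus strand) encodes a protein that binds methylated DNA and recruits repressor complexes. Preexisting RNA measured 18.2, 14.3, 26.2 and 27.9 TPM in depleted cells and 6.02, 5.72, 2.98 and 5.81 TPM in WT cells. The genotypes did not overlap and depleted culture 2 was above depleted culture 1, with a log2 change of 1.88 (SE 0.28, limma adjusted p = 0.0426). Labelled Mbd2 RNA varied little within a genotype, with 13.9, 14.5, 15.4 and 15.3 TPM in depleted and 7.16, 6.83, 7.14 and 6.21 TPM in WT cells (log2 change 1.01, SE 0.28, limma adjusted p = 0.238). Its labelled intronic RNA was also higher in every depleted library, at 11.5, 11.3, 15.2 and 10.3 TPM, against 6.33, 4.97, 6.68 and 5.61 TPM in WT cells.

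**Figure D2:**
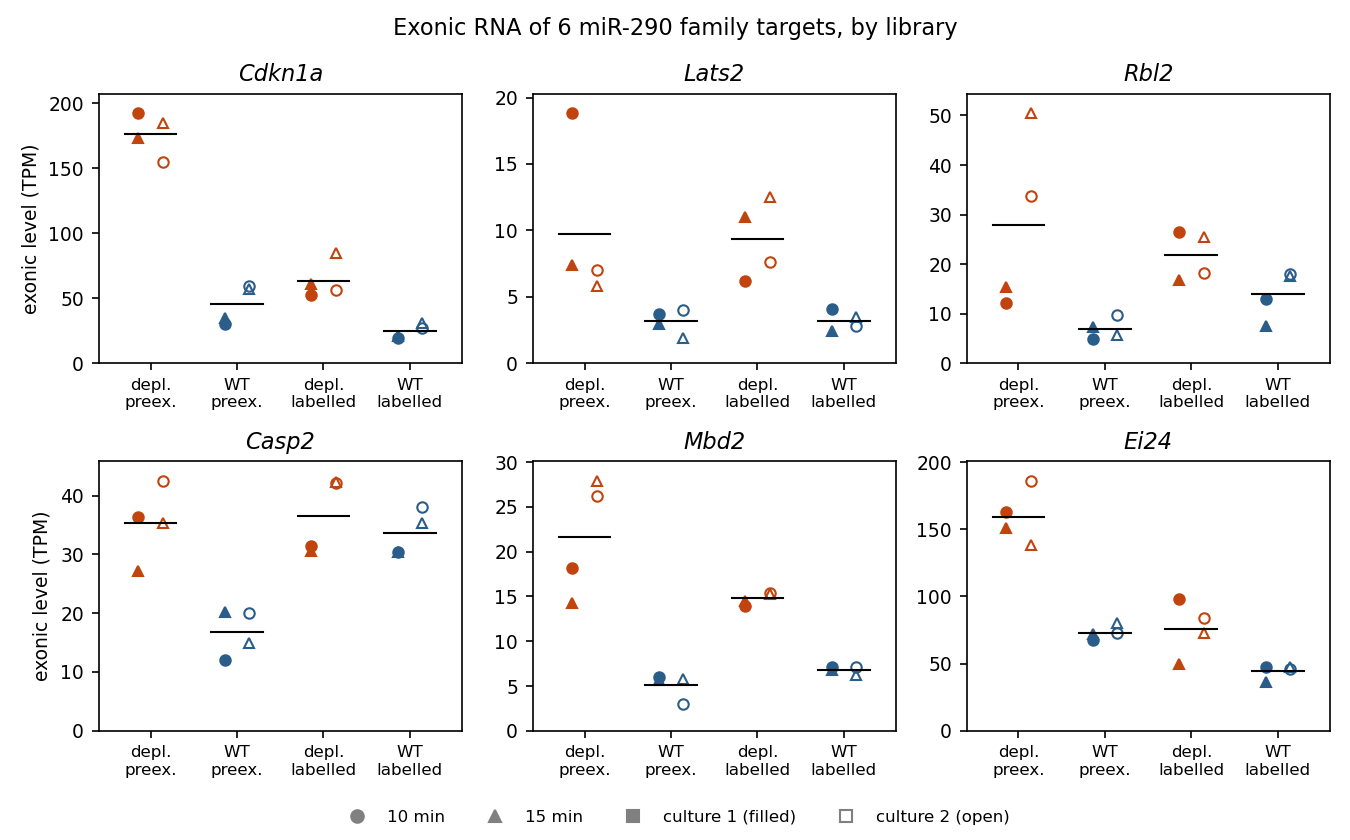
Exonic level in TPM of each of the 6 genes in every 4sU library, with Dicer-depleted libraries left of WT libraries, first in preexisting (preex.) and then in labelled RNA. Circles are 10 minutes and triangles 15 minutes of labelling, filled symbols culture 1 and open symbols culture 2, and the bar is the mean; depleted and WT points are separate in preexisting RNA for all 6 genes and overlap in labelled RNA for Rbl2 and Casp2.

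None of the 6 passed the limma test in labelled exonic RNA, against 0.0917% of genes called higher, 0.0367% called lower and 0.128% called in either direction. At an unadjusted p under 0.05 there were 4 of 6 (Cdkn1a, Lats2, Mbd2 and Ei24), and 2963 of all 21821 genes; no other tool was run on these values. The labelled libraries did not overlap between genotypes for those same 4 genes, and how many of all genes were free of overlap there was not counted. The median log2 change of the 6 was 0.87 in labelled RNA, and that of all tested genes 0.06. The 3 calls in preexisting RNA rest on all cultures and both labelling times: without any single culture, or with 1 labelling time alone, none of Cdkn1a, Mbd2 and Ei24 was called, while their log2 changes stayed between 0.92 and 2.40.

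Setting preexisting against labelled RNA within each culture asks whether the standing RNA changed more than the new RNA. For 5 of the 6 genes the ratio was higher in both depleted cultures than in both WT cultures, and for Lats2 the cultures overlapped. Over all 21821 genes tested, 47.8% had a positive log2 difference in this ratio. How many of them had their cultures apart was not counted. As log2 ratios, Casp2 measured 0.02 and -0.12 in the depleted cultures and -0.92 and -1.04 in the WT cultures, so the depleted cultures had about equal relative levels in both fractions and the WT cultures had less in preexisting RNA. Mbd2 measured 0.17 and 0.78 in the depleted and -0.22 and -0.56 in the WT cultures. Cdkn1a measured 1.68 and 1.28 in the depleted cultures, against 0.66 and 0.99 in the WT cultures.

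The ratio of Ei24 moved least among these 5, at 1.15 and 1.03 in depleted and 0.73 and 0.70 in WT cultures. Rbl2 measured -0.59 and 0.90 in the depleted cultures and -0.64 and -1.15 in the WT cultures. The Rbl2 difference rested on depleted culture 2, since depleted culture 1 lay next to a WT culture. Lats2 had 0.47 and -0.54 in the depleted and 0.05 and -0.11 in the WT cultures, with both depleted values outside the WT pair on opposite sides.

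In limma the log2 differences in this ratio were 1.05 for Rbl2 (SE 0.52), 0.93 for Casp2 (SE 0.23), 0.86 for Mbd2 (SE 0.32), 0.66 for Cdkn1a (SE 0.25) and 0.37 for Ei24 (SE 0.20). The Rbl2 value was 0.30 without depleted culture 2 and 1.79 without depleted culture 1. For Lats2 it was near 0 (SE 0.41, 95% interval -1.01 to 1.00), which leaves room for a change of 2-fold in either direction. None of the 6 passed (adjusted p = 0.997 for 5 of them and 0.999 for Lats2), and neither did any of the 21821 genes tested (0%). At an unadjusted p under 0.05 there were 3 of 6 (Casp2, Mbd2 and Cdkn1a) and 940 of all genes. The median was 0.76 over the 6 and -0.02 over all genes.

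**Figure D3:**
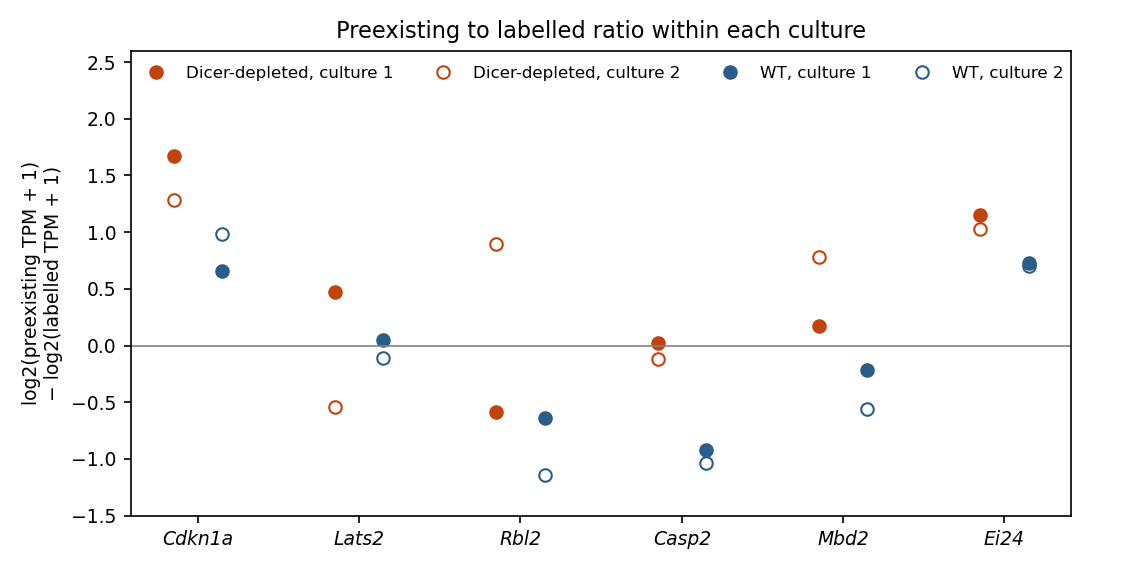
Log2 ratio of preexisting to labelled exonic RNA in each culture, with the 2 Dicer-depleted cultures left of the 2 WT cultures for each gene and 10 and 15 minutes averaged. Depleted cultures lie above WT cultures for all genes except Lats2, and for Rbl2 1 depleted culture lies next to a WT culture.

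Intronic RNA in the labelled fraction marks new transcripts not yet spliced. Rates of synthesis, splicing and intron decay were not told apart. Over all 21677 genes tested labelled intronic RNA was shifted upward in depleted cells, with a median log2 change of 0.33 and 80.8% of genes positive. Introns held 18.5 to 23.3% of the labelled signal in depleted and 15.5 to 18.4% in WT libraries. Against that shift Mbd2 (1.01, SE 0.22) and Ei24 (0.75, SE 0.25) had a larger change than the median gene, Cdkn1a (0.34, SE 0.43) and Rbl2 (0.27, SE 0.46) about the same, and Casp2 (0.05, SE 0.41) and Lats2 (-0.41, SE 0.21) a smaller one. With each library centred on its median the values were 0.69 for Mbd2, 0.43 for Ei24, 0.02 for Cdkn1a, -0.05 for Rbl2, -0.28 for Casp2 and -0.73 for Lats2, so the sign of Rbl2 and Casp2 depends on the scaling.

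None of the 6 and none of all genes (0%) passed the limma test in labelled intronic RNA; at an unadjusted p under 0.05 there were 2 of 6, Mbd2 and Ei24, and 4850 of 21677 genes. Labelled intronic libraries were free of overlap between genotypes for Mbd2 alone among the 6, with no such count made over all genes. Ei24 introns measured 34.7, 37.0, 34.9 and 26.8 TPM in depleted and 18.0, 15.7, 26.9 and 19.4 TPM in WT cells, where 1 WT library reached the lowest depleted one. In preexisting RNA intronic levels were low, at most 10.8 TPM for the genes other than Lats2, and none of the 6 passed, against 0.00923% of genes called (3 of 6 and 5402 of 21677 genes at an unadjusted p under 0.05). The log2 changes ran from 0.47 for Casp2 to 0.92 for Cdkn1a, with -0.66 for Lats2, and the median gene was at 0.30.

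Labelled intronic Lats2 RNA measured 46.4, 87.5, 45.0 and 69.0 TPM in depleted cells and 70.3, 101, 72.5 and 76.0 TPM in WT cells, with overlap. This sum was carried by 1 short entry. Of its 9 intronic entries, the one of 1798 bases (Lats2-206) held 32.4 to 71.1 TPM of the 45.0 to 87.5 TPM in labelled RNA of depleted cells, and 62.4 to 91.8 TPM of the 70.3 to 101 TPM in WT cells. Its intron contains Gm20430, a processed pseudogene on the opposite strand (chr14:57698013-57698219), which was itself listed at 127 to 264 TPM in depleted and 253 to 320 TPM in WT labelled RNA. Leaving out the 4 entries that cover Gm20430, a choice made after seeing the data, turned the direction of Lats2. Labelled intronic RNA then measured 8.42, 8.32, 5.43 and 5.65 TPM in depleted cells and 2.65, 2.39, 1.66 and 1.36 TPM in WT cells. All depleted libraries lay above all WT libraries, and the log2 change was 1.75 (limma adjusted p = 0.183), against 1.27 in labelled exonic RNA. In preexisting RNA the remaining entries measured 2.95, 0.892, 0.683 and 0.999 TPM in depleted and 0.535, 0.322, 0.084 and 0.081 TPM in WT cells (log2 change 2.05, limma adjusted p = 0.0955). Whether the reads in that intron came from Lats2, Gm20430 or another gene was not tested.

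**Figure D4:**
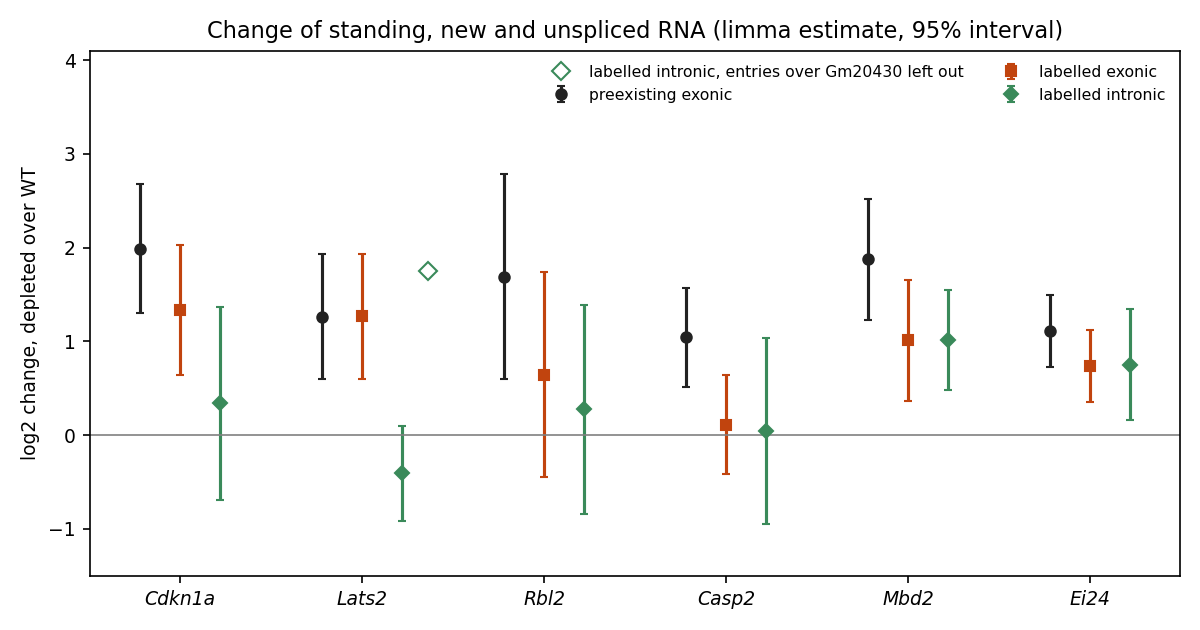
Log2 change of depleted over WT cells for each gene in preexisting exonic, labelled exonic and labelled intronic RNA, as limma estimates with 95% intervals from 2 cultures per genotype. The open diamond is Lats2 labelled intronic RNA without the entries over Gm20430, drawn with no interval; the intervals of preexisting RNA lie above 0 for all 6 genes, and those of labelled intronic RNA lie above 0 for Mbd2 and Ei24.

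Preexisting exonic RNA was also set against labelled intronic RNA within each culture. The depleted cultures were above the WT cultures for all 6 genes, with log2 differences of 1.67 for Lats2 (SE 0.33), 1.65 for Cdkn1a (SE 0.39), 1.42 for Rbl2 (SE 0.47), 1.00 for Casp2 (SE 0.28), 0.86 for Mbd2 (SE 0.37) and 0.36 for Ei24 (SE 0.29). Among all 12732 genes tested the median was -0.25 and 27.9% were positive. How many of them had depleted cultures above the WT cultures was not counted. None of the 6 and none of all genes (0%) passed in limma (adjusted p = 0.655 to 0.756 for the 6); at an unadjusted p under 0.05 there were 4 of 6, all but Mbd2 and Ei24, and 940 of 12732 genes. The Lats2 value rests on the entries over Gm20430 and was -0.49 without them.

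Set side by side, with no difference between measures past the test for any of the 6, the log2 changes in preexisting exonic, labelled exonic and labelled intronic RNA were 1.04, 0.11 and 0.05 for Casp2. For Cdkn1a they were 1.99, 1.33 and 0.34, and for Rbl2 1.69, 0.64 and 0.27. Those of Mbd2 were 1.88, 1.01 and 1.01, and those of Ei24 1.11, 0.74 and 0.75. The near equality of labelled exonic and intronic changes in these last genes depends on the scaling: with each library centred on its median they were 0.92 and 0.69 for Mbd2 and 0.64 and 0.43 for Ei24. For Lats2 they were 1.26, 1.27 and -0.41, with an intronic sign that turns without the entries over Gm20430. Of all these values, those of Cdkn1a, Mbd2 and Ei24 in preexisting RNA passed the test.

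The genes were sums of several annotated transcripts, 42 exonic entries in all. All 42 exonic entries had a higher mean in depleted than in WT preexisting RNA, 40 of 42 in labelled RNA, and 37 of 42 intronic entries were higher in labelled RNA. Entries of 1 gene overlap and are not independent of one another. Of all genes tested, 53.2% were positive in preexisting exonic, 55.5% in labelled exonic and 80.8% in labelled intronic RNA. The shares over all entries were not counted. Coding transcripts made up all of the Cdkn1a sum but a minor part of Rbl2, Casp2 and Mbd2. In preexisting RNA of depleted and WT cells they held 18.7% and 21.8% (Rbl2), 25.6% and 25.4% (Casp2), and 36.0% and 37.7% (Mbd2). The exonic sums of Rbl2, Casp2, Mbd2 and Ei24 include entries annotated as retained introns, so these sums can hold intron sequence. With coding transcripts alone the preexisting log2 changes were 1.25 for Rbl2, 0.93 for Casp2, 1.58 for Mbd2, 1.203 for Lats2, 1.065 for Ei24 and 1.99 for Cdkn1a, and the same 3 genes passed. Across the 16 libraries the 6 genes moved together to different degrees, with Pearson's r from 0.16 to 0.90 and a median of 0.64 over 15 pairs; the libraries share genotype, fraction and culture, so this is a description.

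Other reported targets of the seed were looked up as a list chosen with earlier results of these data known. Of 11, 8 had a mean exonic level of at least 1 TPM over the 16 libraries and were tested, and Tgfbr2, Dkk1 and Irf2 had not. Over all 21821 genes tested 53.2% had a positive log2 change in preexisting RNA. In the list it was positive in all 8 (median 0.61). Of these, 1 passed: Ash1l, a histone methyltransferase, had 29.6 ± 5.95 TPM in depleted and 10.2 ± 2.5 TPM in WT cells (SD, n = 2 cultures each; log2 change 1.46, limma adjusted p = 0.0485). Dazap2, at 160 ± 36.5 TPM in depleted and 47.8 ± 18.6 TPM in WT cells, had a log2 change of 1.78 and missed the threshold (limma adjusted p = 0.051). In labelled RNA 7 of these 8 were positive, the median was 0.37 and none passed, with 2 at an unadjusted p under 0.05. Of all 21821 genes, 55.5% were positive there and 2963 had an unadjusted p under 0.05 in limma.

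As a further comparison, 10 paralogs of the 6 genes were read. Of these Lats1, Rbl1 and Mbd1 held a 7-base site in the transcript searched, as did all 11 of the other reported targets except Dkk1. The paralogs' median log2 change in preexisting RNA was 0.00, 6 of 10 were positive, and none passed in limma, with 4 at an unadjusted p under 0.05. Of all 21821 genes, 53.2% were positive and 3886 had an unadjusted p under 0.05. Cdkn1b, the p27 relative of Cdkn1a, had 5.20 ± 0.263 TPM in depleted and 5.36 ± 2.16 TPM in WT cells, with overlap. Rb1 had 33.8 ± 4.30 TPM in depleted and 14.7 ± 5.99 TPM in WT cells (log2 change 1.19, limma adjusted p = 0.11), while Rbl1, the closest relative of Rbl2, had 6.35 ± 0.859 and 6.58 ± 1.28 TPM in depleted and WT cells. Lats1 had 16.01 ± 3.39 TPM in depleted and 8.70 ± 1.17 TPM in WT cells, without overlap (log2 change 0.80, limma adjusted p = 0.165). The largest paralog change was that of Casp8, with overlapping libraries (log2 change 1.36, limma adjusted p = 0.187). Mbd1 had 3.44 ± 1.42 and 1.15 ± 0.0845 TPM in depleted and WT cells, without overlap (log2 change 1.02, limma adjusted p = 0.13). Cdkn1c, Casp9, Mbd3 and Mbd4 had log2 changes of -0.46, -0.39, -0.09 and 0.00.

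**Figure D5:**
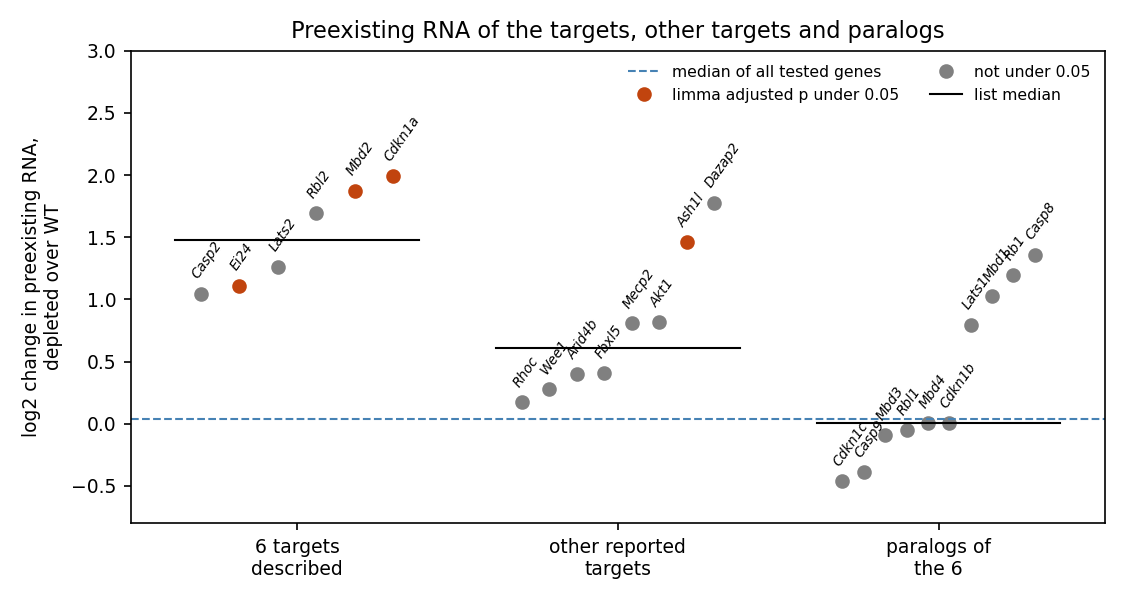
Log2 change in preexisting exonic RNA of depleted over WT cells for the 6 targets, the 8 tested genes of the list of other reported targets and the 10 paralogs, 1 point per gene with its name. Coloured points had a limma adjusted p under 0.05, black bars are list medians (1.48, 0.61 and 0.00) and the dashed line is the median of all 21821 genes (0.03).

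The protein-coding genes whose levels over the 16 libraries were most like the mean profile of the 6, among 7510 with a mean of at least 5 TPM, were 9530068E07Rik (Pearson's r = 0.97), Ankib1 (0.95), Plekha3 (0.95), Ccpg1 (0.95) and Gm44503 (0.95). 9530068E07Rik held 2 of the 7-base sites and had 130 TPM in depleted against 17.5 TPM in WT preexisting RNA, a log2 change of 2.84. Since these genes were picked for this likeness, their values are a description. Plekha3 held 1 site, with 17.2 TPM in depleted and 6.47 TPM in WT cells, and Ankib1 and Ccpg1 held none in the transcript searched.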

How the data were processed

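Small RNA values are raw counts deposited by the authors; per the labels' protocols, adapters were removed with cutadapt 1.8, reads aligned to mm10 with Bowtie2 and counted over miRBase with HTSeq. The 15 libraries held 11134202 to 16216368 reads, of which 51984 to 2366940 lay on microRNAs; the other 78.7 to 99.6%, in 5 summary lines, count only towards library size, which was taken over all reads since the microRNA total itself differed between days; 40.1 to 65.8% of reads were set aside for low alignment quality. Names came from RefSeq for 1905 of 1907 identifiers. edgeR 4.0.16 (quasi-likelihood, filterByExpr) tested day 8 against day 0 in a fit of all 15 libraries.

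The 4sU table holds a signal that the authors call TPM. Per the labels' protocols, STAR 2.5.0 served to discard ribosomal reads, and RSEM gave levels over separate exonic and intronic transcript sequences. Every deposited column sums to 10000000, so this signal was divided by 10 to give TPM; depth is unknown and no counting interval is given. Of 121429 exonic and 91702 intronic entries, 110366 and 89935 matched GENCODE M21 and were summed per gene. limma 3.58.1 (trend, two-sided, Benjamini-Hochberg, threshold 0.05) was run on log2(TPM + 1) for exonic and log2(TPM + 0.1) for intronic values, with a mean of at least 1 or 0.1 TPM over the 16 libraries; such fold changes understate those of low genes. Both labelling times of a culture were averaged on the log2 scale, all 8 profiles shared 1 fit, and ratios were taken within a culture (4 cultures). The members, lists and alternatives were chosen with earlier results of these data known. Named genes were the 6, Dicer1, the listed targets and paralogs, the microRNAs with the seed, and the 5 genes most like the mean profile; Gm20430 and Gm49361 were named after their values were seen. R 4.3.3, Python 3.11.15, pandas 2.3.3, scipy 1.17.1, DESeq2 1.42.0 (an alternative) and matplotlib 3.10.9 were used. The same numbers in the 2 genotypes mark replicates, and nothing in the labels ties them to a shared day or batch.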

Additional observations from a re-analysis of the deposited data

How the results depend on the processing

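The 6 genes kept their positive direction in preexisting RNA under all 12 alternatives run, while the calls depended on the setting. The count of genes called in preexisting RNA, 141 in all, was 0 with no filter or with this fraction alone in the fit, 62 with median-centred libraries, 1 with 10 minutes only, 7 with 15 minutes only and 0 to 0 without any one culture; Mbd2 and Ei24 missed the threshold when centred (adjusted p = 0.0536 and 0.0516). The count in labelled RNA, 28, became 0 with a pseudocount of 0.1 or this fraction alone, 86 with no filter, 15 when centred and 0 to 76 without one culture. For the ratio the 0 became 1 with a pseudocount of 0.1 and 1 as an interaction. For labelled introns 0 became 17 with no filter, 2 when centred, 17 and 7 with 10 or 15 minutes only, 0 to 5 without one culture and 1118 with a pseudocount of 1, where Mbd2 was called (adjusted p = 0.0364). For preexisting introns 2 became 8 when centred, 0 with 15 minutes only or this fraction alone, 1 with a pseudocount of 1 and 0 to 0 without one culture. For exonic over intronic RNA 0 became 1 when centred, 1 with 15 minutes only and 0 to 2 without one culture. In small RNA 244 became 625 with no filter, 401 with days 0 and 8 only, 173 with TMM, 244 with DESeq2 and 241 to 279 without one replicate. The cause of these shifts was not tested.

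With the replicate number as a block (replicate block), 267 genes were called in preexisting RNA and Casp2 was among them (adjusted p = 0.0433); 23 were called in labelled RNA, 0 for the ratio, 0 in labelled introns, 76 in preexisting introns, 1 for exonic over intronic RNA and 244 microRNAs. Same-numbered cultures had correlated deviations of 0.22 and 0.16 and small RNA replicates of 0.25, 0.03 and 0.21, which does not show the numbers to be pairs.

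Direction reversed in these cases, none past the threshold. Leaving out 1 culture at a time gave log2 changes of -0.106 (without depleted culture 2) and -0.019 (without WT culture 1) to 0.33 for labelled Casp2, -0.51 to 0.503 for the Lats2 ratio (0.075 without WT culture 1), -0.236 (without WT culture 1) and -0.091 to 0.911 for labelled introns of Cdkn1a, -0.095 to 0.188 for those of Casp2, -0.011 to 1.37 for preexisting introns of Rbl2 and -0.118 to 1.066 for those of Casp2. The Lats2 ratio was 0.002 with a pseudocount of 0.1, 0.046 when centred and 0.534 with 10 minutes only. Labelled introns were -0.048 for Rbl2 and -0.275 for Casp2 when centred, and -0.041 for Casp2 with 15 minutes only. Under alternatives chosen after seeing the data, Lats2 labelled introns were 0.21 with entries weighted by length, and without entries over Gm20430 Lats2 was 1.755 in labelled introns, 2.047 in preexisting introns and -0.492 for exonic over intronic RNA.

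With 2 cultures per genotype the ratio test called 0 genes of 21821, so a missed threshold there does not show that a gene's ratio stayed equal; the unknown depth of the 4sU libraries also limits low genes such as Lats2.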
